A study of Mus musculus with 4 samples.

Results

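The ephrins and their Eph receptors, and the semaphorins with their plexin and neuropilin receptors, were examined in neural stem/progenitor cells (NSCs) with and without Chd5, a chromatin remodeler of the CHD family. Every gene whose name begins with Epha, Ephb, Efna or Efnb and a number, with Sema and a digit, or with Plxn was taken, together with Nrp1 and Nrp2. The rule uses names alone and found 51 of the 18169 rows of the expression table. The 51 genes were 7 A-type and 5 B-type Eph receptors, 5 A-type and 3 B-type ephrins, 20 semaphorins, 9 plexins and 2 neuropilins. Family members outside the table were not analysed here.

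Ephrins are ligands tethered to the cell surface, the A-type by a lipid anchor and the B-type by a transmembrane segment, and they act on Eph receptor tyrosine kinases of touching cells. Binding signals into both cells and often makes them repel or sort apart. Semaphorins are secreted or membrane-bound cues read by plexins, whose cytoplasmic part acts on small GTPases and through them on the cytoskeleton. Most secreted semaphorins of class 3 need a neuropilin as the ligand-binding partner of a plexin. Both systems steer growing axons, and in the neonatal ventricular zone and subventricular zone they also take part in the migration and proliferation of neural progenitors.

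RNA was sequenced from primary NSC cultures of 4 C57BL/6 mice, 2 +/+ and 2 Chd5-/-. Each culture came from the tissue around the ventricles of a single newborn brain and was kept in medium that keeps NSCs proliferating, with epidermal growth factor and fibroblast growth factor 2, so the replicates are different animals. Libraries were stranded and made from polyadenylated RNA. In their age entries the +/+ mice are of postnatal days 1 and 2 and the Chd5-/- mice of days 3 and 4, whereas the growth protocol puts all at day 1, so by these entries age and genotype cannot be told apart. Expression was deposited as TPM, a share of the sample's transcripts in which reads are scaled by transcript length, so that levels can be compared between genes. TPM keeps no record of the read number, so the depth of each library is unknown.

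The targeted gene, Chd5, had 0.39 and 0.37 TPM in the +/+ samples and 0.06 and 0.04 TPM in the Chd5-/- samples, under the mean of 1 TPM required for testing. All 11 markers of NSCs were in the table, and their summed level was 9878 and 8191 TPM in the +/+ samples and 3988 and 6950 TPM in the Chd5-/- samples. The lower sums in Chd5-/- NSCs were mostly Fabp7, a fatty acid binding protein of radial glia, and Slc1a3, a glutamate transporter of the same cells. The median Chd5-/- minus +/+ difference of the list on the log2(TPM + 1) scale was -0.10, against 0.34 for all rows tested. Egfr, the receptor of epidermal growth factor, was higher without overlap, at 138.93 and 129.19 TPM against 147.21 and 324.03 TPM, Prom1, Msi1 and Hes5 had higher means, and Nes overlapped between genotypes. In bulk RNA, fewer cells of a type and less RNA per cell cannot be told apart. Neuronal markers summed to between 379 and 805 TPM, nearly all of it Map2, while Rbfox3, a marker of mature neurons, was at most 0.07 TPM, and astrocyte markers summed to between 536 and 1430 TPM. Of the microglial markers 3 of 10 were found, and they summed to at most 0.75 TPM. Mesenchymal and pericyte markers summed to 22.57 TPM in Chd5-/- replicate 1 and to 0.48, 1.68 and 0.73 TPM in +/+ replicates 1 and 2 and Chd5-/- replicate 2.

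Guidance genes of both systems were transcribed in these NSCs, and 37 of the 51 had a mean of at least 1 TPM over the 4 samples. Their summed level over all 51 was 429.96 and 349.77 TPM in the +/+ samples and 442.15 and 561.06 TPM in the Chd5-/- samples, so the sums of the genotypes were separated by less than the spread between replicates. Semaphorins made the greatest part, from 187.28 to 232.41 TPM, followed by plexins, from 73.75 to 181.35 TPM. The transmembrane semaphorin Sema6d had the highest mean TPM of all members, Plxnb2 the highest of the receptors and Epha5 the highest of the Eph receptors. At the other end, 14 members had means from 0.0075 to 0.92 TPM, and no single value of theirs was above 1.99 TPM. These were Epha1, Epha2, Epha3, Epha10, Efna5, Sema3b, Sema3d, Sema3e, Sema3f, Sema3g, Sema4a, Sema4f, Sema6b and Sema7a. They were not tested, and in 8 of the 14 both Chd5-/- values were above both +/+ values, while in the other 6 the genotypes overlapped. Of all 5593 rows with a mean under 1 TPM, 29.4% were higher without overlap.

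**Figure D1:**
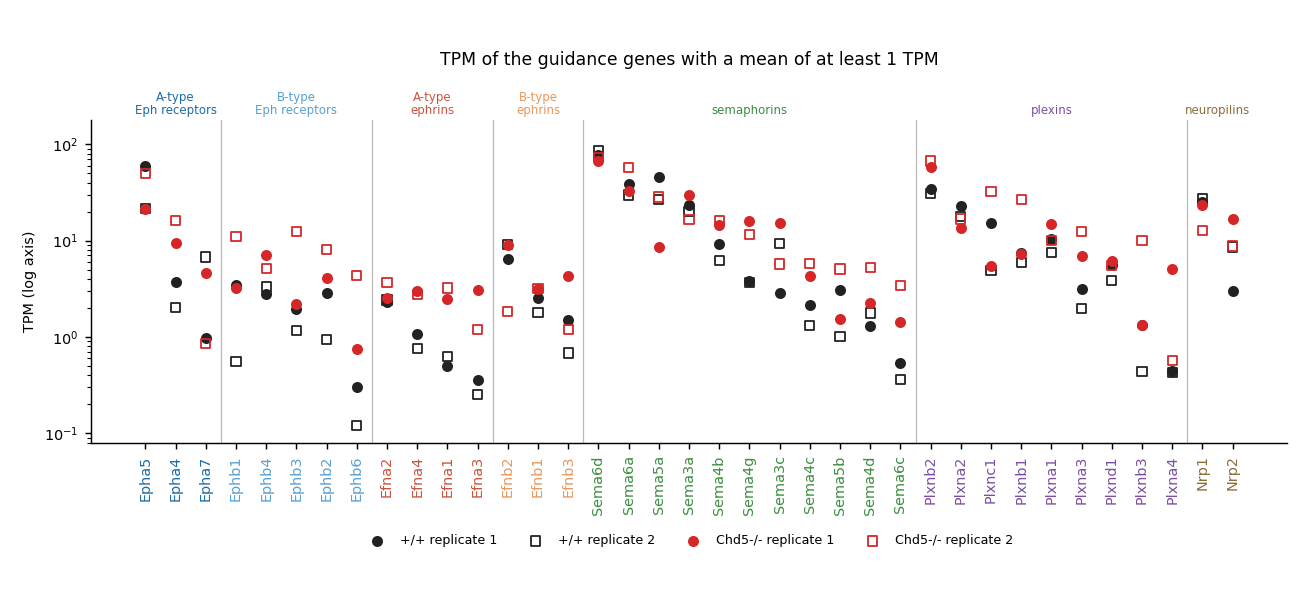
Each point is the TPM of one sample (vertical axis, logarithmic) for one of the 37 guidance genes with a mean of at least 1 TPM (horizontal axis, grouped by class), with filled circles for replicate 1 and open squares for replicate 2 of +/+ (black) and Chd5-/- NSCs (red). Sema6d lies between 66.88 and 85.87 TPM in the 4 samples, whereas Ephb6 spans 0.12 to 4.34 TPM.

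limma was run on log2(TPM + 1) for the 12576 rows whose mean reached 1 TPM, and all differences below are Chd5-/- minus +/+ on this scale, on which low genes show less than their full change. None of the 37 members passed a Benjamini-Hochberg adjusted p of 0.05, as against 7 of all rows tested (0.0557%), and the smallest limma adjusted p among members was 0.120. At an unadjusted p under 0.05, 11 members were higher in Chd5-/- NSCs, against 21.9% of all rows, and 0 were lower, against 2.27% (24.1% of all rows in either direction). The 11 were Epha4, Ephb2, Efna1, Efna3, Efna4, Plxna3, Plxnb2, Sema4b, Sema4c, Sema4g and Sema6c. In 19 members both Chd5-/- values were above both +/+ values (46.3% of all rows), in 3 both were below (13%), and in 15 the genotypes overlapped, so that 22 of the 37 were without overlap in either direction, against 59.4% of all rows. The 3 lower ones were Nrp1, Plxna2 and Sema6d, which were among the more abundant members. The median difference of the 37 members was 0.84, and that of all rows was 0.34.

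The deposited TPM values place most rows higher in Chd5-/- NSCs, so the direction of the members was also read under other scalings. Median-of-ratios scaling brought the median of all rows to 0.0052 and that of the members to 0.53, with 5 members higher and 3 lower at an unadjusted p under 0.05 by limma, against 11.99% and 10.42% of all rows. The 3 lower ones were Nrp1, Plxna2 and Sema6d. Quantile normalization gave medians of -0.054 and 0.18, with 3 higher and 1 lower, against 8.77% and 8.14% of all rows. After trends with GC content and transcript length were removed from each sample, the medians were -0.020 and 0.14, with 2 higher (Epha4 and Sema4g) and 2 lower (Plxna2 and Sema6d), against 4.91% and 5.79% of all rows. These shares of all rows are near those of the members after removal of the trends and for median-of-ratios scaling. The transcripts of the 37 members had a median GC content of 55.8%, against 50.1% for all rows, and were longer, with medians of 4793 and 2782 bases. Across the 12103 rows with an annotated transcript, the difference had a rank correlation of 0.62 with GC content. Across the 37 members it was 0.33, a description over genes that share the same 4 libraries. The part of GC content in the members' differences was not tested further.

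**Figure D2:**
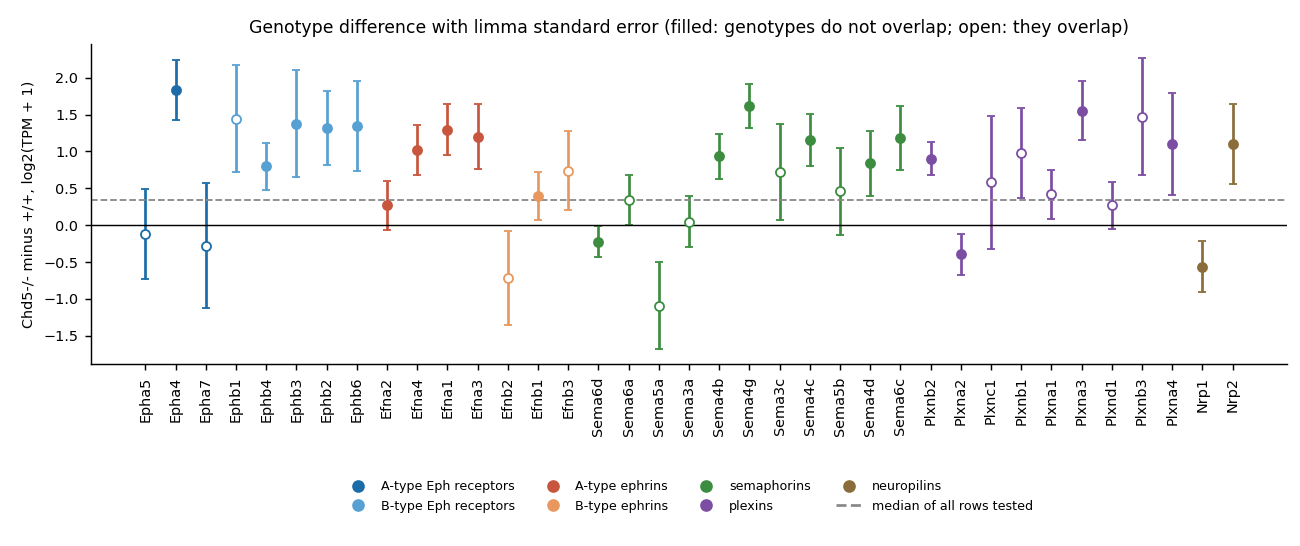
Points show the Chd5-/- minus +/+ difference in log2(TPM + 1) for the 37 members with a mean of at least 1 TPM, bars the limma standard error, filled points members whose genotypes do not overlap, and the dashed line the median of all rows tested (0.34). Epha4 has the largest positive difference (1.83) and Sema5a the largest negative one (-1.09), and the latter is open because its genotypes overlap.

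Of the ligands of the Eph system, the A-type ephrins shared a direction. All 4 tested members had both Chd5-/- values above both +/+ values with TPM as deposited, as did 46.3% of all rows. The median difference of the class was 1.11, against 0.34 for all rows. The median stayed positive under the scalings run, at 0.92 for median-of-ratios scaling, 0.56 for quantile normalization and 0.14 after removal of the trends, although in each of these Efna2 turned negative. The summed level of the 5 A-type ephrins was 4.64 and 4.59 TPM in the +/+ samples and 12.34 and 11.02 TPM in the Chd5-/- samples. These were low levels, and the replicates lay closer together than in the other classes of the Eph system.

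Efna1, Efna3 and Efna4 are neighbours on chromosome 3, all on the minus strand, and span 66.3 kb of GRCm38 from 89271733 to 89338028. Efna1, an ephrin with broad affinity for A-type receptors, had 0.50 and 0.63 TPM in the +/+ samples and 2.49 and 3.21 TPM in the Chd5-/- samples. Its mean TPM was 5.04-fold higher in Chd5-/- NSCs, with a difference of 1.29 (SE 0.35, limma, Benjamini-Hochberg adjusted p = 0.133). Both Chd5-/- samples were well above both +/+ samples. Efna3 had 0.36 and 0.25 TPM against 3.09 and 1.20 TPM, 7.03-fold higher by the means, with a difference of 1.20 (SE 0.44, limma, Benjamini-Hochberg adjusted p = 0.190). The 2 Chd5-/- samples differed from each other here, but the lower of them was above both +/+ samples. Efna4 had 1.07 and 0.75 TPM against 2.99 and 2.74 TPM, 3.15-fold higher, with a difference of 1.02 (SE 0.34, limma, Benjamini-Hochberg adjusted p = 0.167). With the trends with GC content and length removed, these 3 differences were smaller, at 0.62 for Efna1, 0.18 for Efna3 and 0.086 for Efna4. With quantile normalization they were 0.71, 0.73 and 0.40. In the annotation 14.1% of the exonic bases of Efna3 and 10.5% of those of Efna4 are shared with a transcript of the opposite strand, and the strand setting of the counting is not given in the sources used here.

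The sequences directly upstream of these ephrin genes are shown because the genes lie together and had differences of the same sign. They are from RefSeq, build GRCm38.p6, minus strand, 5′ to 3′, cut where an annotated exon of the gene begins, and capitals mark the GC box GGGCGG or its complement CCGCCC. The stretches are chr3:89281143-89281201 for Efna1, chr3:89322966-89323189 for Efna3 and chr3:89338029-89338278 for Efna4.
Efna1: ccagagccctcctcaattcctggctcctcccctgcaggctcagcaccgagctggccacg
Efna3: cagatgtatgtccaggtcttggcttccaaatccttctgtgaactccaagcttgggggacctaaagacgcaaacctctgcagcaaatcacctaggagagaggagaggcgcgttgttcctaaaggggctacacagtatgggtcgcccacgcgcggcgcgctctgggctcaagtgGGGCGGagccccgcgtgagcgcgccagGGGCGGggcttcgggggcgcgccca
Efna4: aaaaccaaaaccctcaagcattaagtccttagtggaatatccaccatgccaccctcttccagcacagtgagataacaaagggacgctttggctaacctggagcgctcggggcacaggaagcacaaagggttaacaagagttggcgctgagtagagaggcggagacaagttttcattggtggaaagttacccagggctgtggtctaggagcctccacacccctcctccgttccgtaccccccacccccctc
The stretch of Efna3 holds 2 GC boxes, that of Efna4 holds 0, and the stretch of Efna1, only 59 bases long, holds 0. In the 250 bases before the RefSeq start, exons included and searched on both strands, Efna1 has 1, Efna3 has 3 and Efna4 has 0. In these windows 25 of the 33 tested members with a RefSeq entry (75.8%) held at least 1 GC box, as did 61.4% of the 9216 tested genes with an entry and 33.0% of 27025 genes in all. The match is of letters only.

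The genes around the 3 ephrins were read in the same way, within 60 kb on either side. Of 9 neighbouring rows tested, 8 had both Chd5-/- values above both +/+ values (46.3% of all rows), 0 had both below, and in 1 (Zbtb7b) the genotypes overlapped. Their median difference was 0.72, from 0.36 for Adam15, a membrane metalloprotease gene next to Efna4, to 1.11 for Thbs3, a thrombospondin gene. Thbs3, Trim46 and Slc50a1 were higher at an unadjusted p under 0.05, as were 21.9% of all rows. The differences of the 3 ephrin genes lay between 1.02 and 1.29, and those of the neighbours reached into this range.

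**Figure D3:**
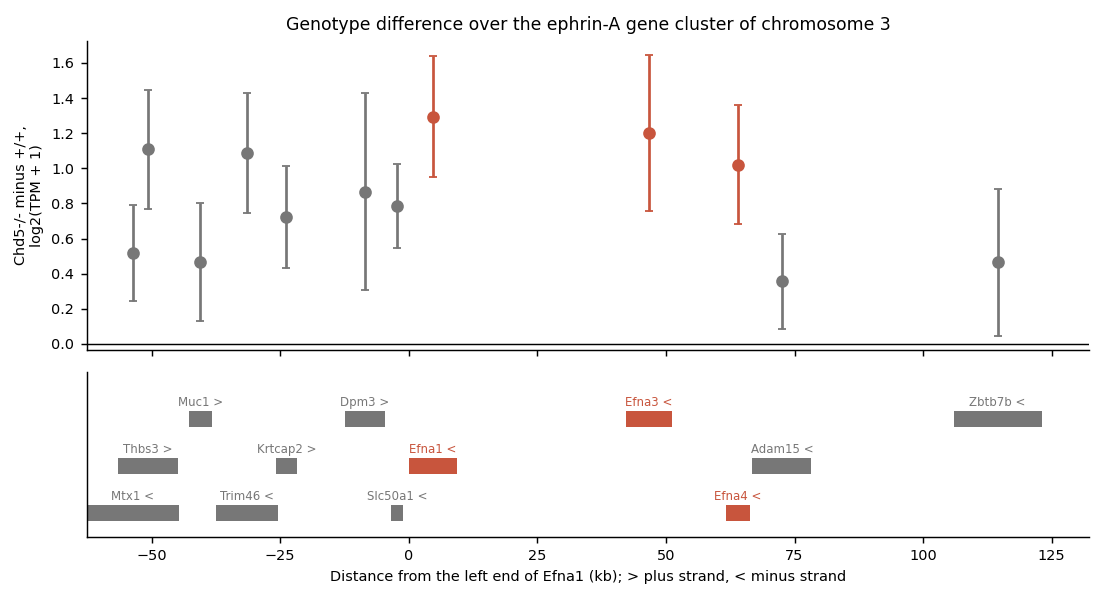
The upper panel shows the Chd5-/- minus +/+ difference in log2(TPM + 1) with its limma standard error for Efna1, Efna3 and Efna4 (red) and the 9 tested neighbours (grey), placed by distance from the left end of Efna1 in kb, and the lower panel shows the gene bodies with their strand. All points lie above 0, from 0.36 for Adam15 to 1.29 for Efna1.

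Efna2, on chromosome 10, was the most abundant A-type ephrin of the +/+ samples, with 2.32 and 2.41 TPM, against 2.54 and 3.65 TPM in the Chd5-/- samples. Its difference of 0.27 was below the median of all rows. It made 50.0% and 52.5% of the A-type ephrin TPM of +/+ NSCs and 20.6% and 33.1% of that of Chd5-/- NSCs. Efna5, an axon-repelling ephrin of topographic maps, had 0.39 and 0.55 TPM against 1.23 and 0.22 TPM, so that the Chd5-/- samples lay on either side of the +/+ samples.

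The B-type ephrins gave no common direction. Efnb2, a ligand of EphB receptors and of Epha4, was the most abundant ephrin in 3 of the 4 samples, with 6.42 and 9.10 TPM in the +/+ samples and 8.88 and 1.83 TPM in the Chd5-/- samples. One Chd5-/- sample was within the +/+ range and the other far below it, and the difference was -0.71 (SE 0.64, limma, Benjamini-Hochberg adjusted p = 0.521). Efnb1, the X-linked B-type ephrin, had 2.54 and 1.80 TPM against 3.11 and 3.16 TPM without overlap, and its difference was 0.39. This difference was near the median of all rows and turned to -0.27 with quantile normalization and to -0.49 with the trends removed. Efnb3, a ligand known for its midline barrier role in the spinal cord, had 1.48 and 0.68 TPM against 4.27 and 1.20 TPM, with overlap.

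Among the receptors, the A-type class was dominated by Epha5, a receptor of neural tissue that binds A-type ephrins, with 59.02 and 21.37 TPM in the +/+ samples and 21.30 and 49.96 TPM in the Chd5-/- samples. The high and the low sample of each genotype were nearly alike, so the genotypes overlapped almost completely, with a difference of -0.12 (SE 0.61, limma, Benjamini-Hochberg adjusted p = 0.919). Epha4, which binds ephrins of both types, had 3.69 and 2.03 TPM against 9.50 and 16.17 TPM. Both Chd5-/- samples were above both +/+ samples, 4.49-fold by the means. The difference of 1.83 (SE 0.40) was the largest of all members, with an unadjusted p of 0.0055 and a Benjamini-Hochberg adjusted p of 0.121 by limma. It was 1.52 with median-of-ratios scaling, 1.23 with quantile normalization and 1.65 with the trends removed, so that most of it remained in each case. Epha4 made 5.73% and 6.55% of the A-type receptor TPM of +/+ NSCs and 24.4% and 23.9% of that of Chd5-/- NSCs. Epha7 had 0.97 and 6.73 TPM against 4.59 and 0.85 TPM and showed no direction.

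The stretch before the first annotated exon of Epha4, chr1:77515089-77515279 on the minus strand of GRCm38.p6, is shown because this gene had the largest difference. It holds 1 GC box, in capitals.
Epha4: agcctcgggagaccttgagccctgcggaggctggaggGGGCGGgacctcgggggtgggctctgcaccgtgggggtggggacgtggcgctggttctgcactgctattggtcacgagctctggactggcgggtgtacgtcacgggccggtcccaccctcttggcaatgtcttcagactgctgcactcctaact

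All 5 B-type receptors were tested and had positive differences (70.4% of all rows), with a median of 1.34, against 0.34 for all rows. The median remained positive with the other scalings, at 1.12, 0.74 and 0.55 with median-of-ratios scaling, quantile normalization and the trends removed, where Ephb4 alone turned negative with the trends removed, at -0.040. Their summed level was 11.35 and 6.08 TPM in the +/+ samples and 17.32 and 41.11 TPM in the Chd5-/- samples, so that replicate 2 of Chd5-/- carried most of the higher level. Ephb2, a receptor of B-type ephrins in axon guidance, had 2.86 and 0.93 TPM against 4.09 and 8.10 TPM, 3.22-fold higher by the means. Its difference was 1.32 (SE 0.50, limma, Benjamini-Hochberg adjusted p = 0.198), the only one of the class with an unadjusted p under 0.05. Ephb4, known for its role with Efnb2 in blood vessels, had 2.81 and 3.30 TPM against 7.02 and 5.16 TPM, with a difference of 0.80 and an unadjusted limma p of 0.052. Ephb3 had 1.94 and 1.17 TPM against 2.21 and 12.42 TPM, and Ephb6, which lacks kinase activity, had 0.30 and 0.12 TPM against 0.75 and 4.34 TPM. In both genes a single Chd5-/- sample was far above the rest. Ephb1 had 3.44 and 0.56 TPM against 3.25 and 11.09 TPM and overlapped between genotypes.

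The ligands of the second system, the semaphorins, differed by class with TPM as deposited. Class 4 semaphorins, transmembrane ligands that signal through B-type plexins among others, had 6 members, of which 4 were tested. All 4 were without overlap and higher in Chd5-/- NSCs, as were 46.3% of all rows. The positive direction of the 4 genes held with median-of-ratios scaling, quantile normalization and the trends removed. With the trends removed their differences lay between 0.14 for Sema4b and 0.85 for Sema4g. The tested class 3 members then had similar values, at 0.14 for Sema3a and 0.77 for Sema3c. With median-of-ratios scaling and quantile normalization Sema3a was negative, at -0.31 and -0.32, and Sema3c positive, at 0.39 and 0.12. The sum of the 6 class 4 genes was 16.6 and 12.99 TPM in +/+ NSCs and 37.24 and 40.09 TPM in Chd5-/- NSCs. Here the Chd5-/- replicates lay close together.

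Sema4g had 3.78 and 3.69 TPM in the +/+ samples and 15.89 and 11.48 TPM in the Chd5-/- samples, 3.66-fold higher by the means. Its difference of 1.62 (SE 0.30) had the smallest p of all members, 0.0026 unadjusted and 0.120 after Benjamini-Hochberg adjustment by limma. The difference was 1.29, 1.02 and 0.85 with median-of-ratios scaling, quantile normalization and the trends removed. Sema4c had 2.16 and 1.32 TPM against 4.29 and 5.82 TPM, with a difference of 1.15 (SE 0.35, limma, Benjamini-Hochberg adjusted p = 0.155). In the annotation 7.27% of its exonic bases are shared with a transcript of the opposite strand. Sema4b, of the highest mean TPM in the class, had 9.24 and 6.18 TPM against 14.53 and 16.28 TPM, 2.00-fold higher, with a difference of 0.93 (SE 0.30, limma, Benjamini-Hochberg adjusted p = 0.165), which was 0.14 with the trends removed. Sema4d, a ligand of Plxnb1, had 1.29 and 1.77 TPM against 2.26 and 5.21 TPM. In all 4 genes the lower Chd5-/- sample was above the higher +/+ sample.

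Class 6 semaphorins, transmembrane ligands of A-type plexins, made more than any other class of semaphorins, from 102.02 to 134.3 TPM in the 4 samples. Sema6d had 77.03 and 85.87 TPM in the +/+ samples and 66.88 and 72.12 TPM in the Chd5-/- samples, without overlap. Its difference of -0.22 (SE 0.21, limma, Benjamini-Hochberg adjusted p = 0.542) was small, but negative under every alternative run, at -0.59 for median-of-ratios scaling and -0.53 after removal of the trends. Sema6d made 36.7% and 45.9% of the semaphorin TPM of +/+ NSCs and 33.6% and 31.0% of that of Chd5-/- NSCs. Sema6a had 38.93 and 29.67 TPM against 32.68 and 57.37 TPM, with overlap. Sema6c was low, with 0.53 and 0.36 TPM against 1.42 and 3.43 TPM, and had a difference of 1.18 (SE 0.44, limma, Benjamini-Hochberg adjusted p = 0.190). The 3 tested members of the class thus lay on both sides of 0.

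The secreted class 3 semaphorins had 7 members, but only Sema3a and Sema3c reached a mean of 1 TPM. Sema3a, the classical growth cone collapsing ligand, had 23.15 and 19.94 TPM against 29.99 and 16.41 TPM, so that the Chd5-/- samples enclosed the +/+ samples. Sema3c had 2.88 and 9.39 TPM against 15.26 and 5.71 TPM. Both members of class 5, transmembrane ligands with thrombospondin repeats, also overlapped. Sema5a had 45.65 and 26.63 TPM against 8.66 and 28.37 TPM, with the largest negative difference of all members, -1.09 (SE 0.59, limma, Benjamini-Hochberg adjusted p = 0.318). Chd5-/- replicate 1 was the lowest sample and +/+ replicate 1 the highest, and the difference was -0.29 without the former and -0.71 without the latter. Sema5b had 3.06 and 1.00 TPM against 1.53 and 5.06 TPM.

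Of the co-receptors of class 3 semaphorins, Nrp1 was lower and Nrp2 higher in Chd5-/- NSCs, each without overlap and without passing the test. Nrp1, which binds Sema3a and VEGF, had 25.17 and 26.95 TPM against 23.60 and 12.66 TPM, with a difference of -0.56 (SE 0.35, limma, Benjamini-Hochberg adjusted p = 0.371). Nrp2, the neuropilin preferred by Sema3f, had 2.97 and 8.57 TPM against 16.84 and 8.79 TPM, with a difference of 1.10 (SE 0.54, limma, Benjamini-Hochberg adjusted p = 0.281). The upper +/+ sample of Nrp2 was close to the lower Chd5-/- sample. Nrp2 made 10.6% and 24.1% of the neuropilin TPM of +/+ NSCs and 41.6% and 41.0% of that of Chd5-/- NSCs. Both genes kept their sign under every alternative run. The negative difference of Nrp1 rested on Chd5-/- replicate 2, and without it was -0.14. Of the endothelial markers 5 of 8 were found, with sums of 5.13 and 19.67 TPM against 1.87 and 1.17 TPM. The lower sums were nearly all from Flt1, a VEGF receptor. Kdr, Tek and Pecam1 had slightly higher means in Chd5-/- NSCs, and no value of theirs was above 0.59 TPM. Emcn had a lower mean, at 0.11 TPM in +/+ and 0.04 TPM in Chd5-/- NSCs. The part of these markers in the level of Nrp1 was not tested.

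All 9 plexins were tested, 8 with a positive difference (70.4% of all rows), and 3 were without overlap and higher in Chd5-/- NSCs (46.3% of all rows). The median was 0.90, and 0.53, 0.43 and 0.13 with median-of-ratios scaling, quantile normalization and the trends removed, where 7, 6 and 6 of the 9 were positive. Plxnb2, a receptor of class 4 semaphorins, was the most abundant, with 34.59 and 31.06 TPM against 57.39 and 66.98 TPM, 1.89-fold higher by the means. Its replicates were close in both genotypes and its difference was 0.90 (SE 0.23, limma, Benjamini-Hochberg adjusted p = 0.128). With the trends removed this was 0.11. Plxna3, an X-linked receptor that acts with neuropilins, had 3.16 and 1.96 TPM against 6.89 and 12.47 TPM, with a difference of 1.55 (SE 0.40, limma, Benjamini-Hochberg adjusted p = 0.129), which was 0.84 with the trends removed. Both Chd5-/- samples were more than 2 times the higher +/+ sample.

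Plxna2, a receptor of class 6 semaphorins, was the only plexin with a negative difference. It had 22.97 and 17.75 TPM against 13.60 and 16.74 TPM, without overlap, and a difference of -0.40 (SE 0.27, limma, Benjamini-Hochberg adjusted p = 0.411). This was -0.75, -0.82 and -0.86 with median-of-ratios scaling, quantile normalization and the trends removed, in each case at an unadjusted p under 0.05. Plxnc1, the receptor of Sema7a, had 15.33 and 4.90 TPM against 5.46 and 32.29 TPM, and Plxnb1 had 7.47 and 5.93 TPM against 7.24 and 26.75 TPM, both with overlap. Plxnb3 had 1.34 and 0.44 TPM against 1.34 and 10.05 TPM, and Plxna4 had 0.44 and 0.43 TPM against 5.02 and 0.57 TPM. In each of these 4 genes 1 Chd5-/- sample was far above the other, and it was replicate 1 for Plxna4 and replicate 2 for the rest. Plxna1 and Plxnd1, the latter a receptor of Sema3e in vessels, overlapped between genotypes, with differences of 0.42 and 0.27.

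Replicates of a genotype lay far apart for many of the guidance genes. The median absolute difference between replicates in log2(TPM + 1) was 0.44 over the members and 0.25 over all rows in +/+ NSCs, and 0.85 and 0.40 in Chd5-/- NSCs. Between the 2 Chd5-/- samples 14 of the 37 members differed by at least 1 on this scale. Replicate 2 was higher for Epha5, Ephb1, Ephb3, Ephb6, Plxnb1, Plxnb3, Plxnc1, Sema5a and Sema5b, and replicate 1 for Epha7, Efnb2, Efnb3, Plxna4 and Sema3c. Between the +/+ samples 8 members did, with replicate 1 higher for Epha5, Ephb1, Ephb2, Plxnc1 and Sema5b and replicate 2 higher for Epha7, Nrp2 and Sema3c. Epha5, Ephb1, Plxnc1 and Sema5b were thus high in the same 2 samples, and Epha7 and Sema3c in the other 2.

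**Figure D4:**
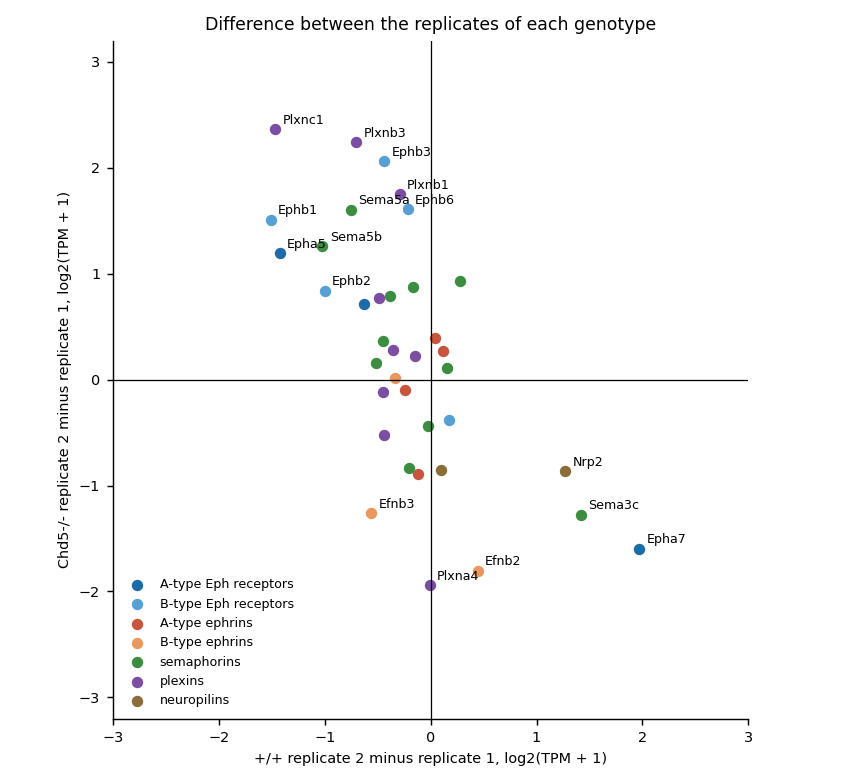
Each point is one of the 37 members, with replicate 2 minus replicate 1 in log2(TPM + 1) for +/+ NSCs on the horizontal axis and for Chd5-/- NSCs on the vertical axis. Plxnc1, Ephb1, Epha5 and Sema5b lie at the upper left and Epha7 and Sema3c at the lower right, each at least 1 from 0 on both axes.

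Markers of the oligodendrocyte lineage were also high in +/+ replicate 1 and Chd5-/- replicate 2 in part. Pdgfra, the receptor that marks oligodendrocyte precursors, had 13.02 and 1.84 TPM in the +/+ samples and 2.98 and 22.75 TPM in the Chd5-/- samples, and Sox10, a transcription factor of the lineage, had 6.04 and 1.46 TPM against 1.23 and 9.37 TPM. Pdgfra had the order of the samples seen for Ephb1 and Plxnc1, whereas Sox10 shared only their 2 highest samples. The whole list, of which 8 of 9 markers were found, summed to 607 and 682 TPM against 552 and 1224 TPM, so it was highest in Chd5-/- replicate 2 but not raised in +/+ replicate 1. Cnp, a myelin enzyme gene, had 36.53 and 51.37 TPM against 47.14 and 296.34 TPM. The sum of the mesenchymal and pericyte markers, all 8 found, was highest in Chd5-/- replicate 1, where Acta2 had 9.55, Col3a1 7.41 and Dcn 4.17 TPM. In the other samples each of these 3 was at most 0.30 TPM. Not every marker of the list followed them, as Rgs5 was highest in +/+ replicate 2, at 1.36 TPM, and Col1a1 was 0 TPM in Chd5-/- replicate 1. The part of the markers of either list in the differences of the guidance genes was not tested.

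The members past the adjusted threshold depended on which Chd5-/- sample was set against the +/+ samples. Without Chd5-/- replicate 1, 9 members passed an adjusted p of 0.05 by limma with Benjamini-Hochberg adjustment, as did 9.92% of all rows, and they were Ephb6, Ephb3, Plxnb3, Sema6c, Plxnb1, Epha4, Efna1, Plxna3 and Plxnb2, all higher. Without Chd5-/- replicate 2, 4 members passed, as did 8.64% of all rows, with Plxna4, Efna3 and Sema4g higher and Sema5a lower. Several of these adjusted p-values were near the threshold, as for Epha4, with 0.043 in the former fit and 0.086 in the latter, and for Sema4g, with 0.064 and 0.041 (limma, Benjamini-Hochberg). Both fits share the +/+ samples. In these fits the remaining Chd5-/- sample is assumed to vary as the +/+ samples do.

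**Figure D5:**
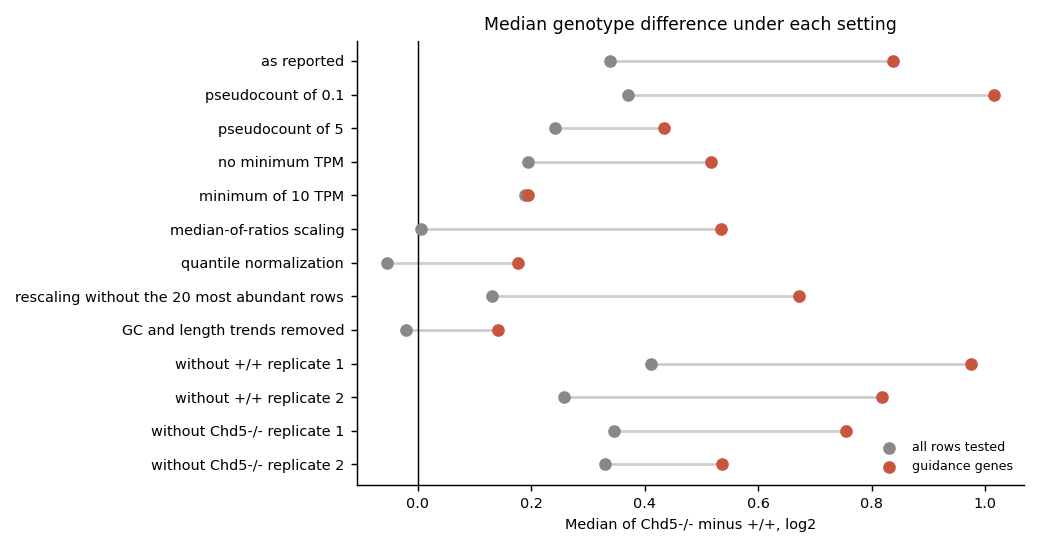
The horizontal axis is the median Chd5-/- minus +/+ difference (log2) over the guidance genes (red) and over all rows tested (grey). Each line is 1 setting of the processing or 1 sample left out. The fits with a replicate block and with eBayes without a trend are not drawn. The median of the guidance genes lies between 0.14 with GC and length trends removed and 1.02 with a pseudocount of 0.1, and that of all rows between -0.054 and 0.41.

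Genes that act beside or downstream of these ligands and receptors were read from 4 lists, and no row of any list passed an adjusted p of 0.05 by limma with Benjamini-Hochberg adjustment. Of the netrin, slit and repulsive guidance molecules and their receptors, 22 of 23 were found and 14 tested, with a median difference of 0.58. At an unadjusted p under 0.05, 2 were higher (14.3%, against 21.9% of all rows) and 0 lower. Ntn1, the netrin that attracts or repels axons through Dcc and Unc5 receptors, had 13.35 and 11.32 TPM in the +/+ samples and 54.21 and 54.08 TPM in the Chd5-/- samples, a difference of 2.05 (limma, Benjamini-Hochberg adjusted p = 0.120). This was larger than the difference of any ephrin, Eph receptor, semaphorin, plexin or neuropilin. The other was Dscam, a netrin receptor, with a difference of 0.84.

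All 22 Eph and ephrin effectors were tested, with a median of 0.54, and 6 were higher and 0 lower at an unadjusted p under 0.05. They were the EphA-binding Sipa1l1 (1.20), the lipid phosphatase gene Inppl1 (0.94), the exchange factor gene Vav2 (1.22), the PDZ protein gene Pick1 (1.15), the adaptor gene Anks1 (1.10) and the kinase gene Src (1.20). Of the semaphorin and plexin effectors and co-receptors, 24 rows were tested, with a median of 0.63, and 9 were higher and 1 lower at this p. The smallest p-values among the higher ones were of Mical1, an actin-oxidizing plexin effector (2.05), Rras, a GTPase that plexins inactivate (2.06), and Rnd3, a small GTPase (2.00). Next came 1 of the 2 rows of Dpysl3 (1.55, with 0.59 for the other row) and Rnd2 (2.43). Rap1a, a GTPase and substrate of plexins, was the lower one, at -0.69. The 13 cytoskeletal effectors shared by both systems had a median of 0.16, and Cfl1, the actin-severing cofilin, and Cdk5 were higher at an unadjusted p under 0.05, by 0.82 and 0.92. Beside all rows, with a median of 0.34 and 21.9% higher at this p, the 3 effector lists had 27.3%, 37.5% and 15.4% of their tested rows higher.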

How the data were processed

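RNA-seq of 4 primary NSC cultures, 2 +/+ and 2 Chd5-/-, was analysed from 1 table of TPM values that the authors deposited, and columns were assigned to samples by name. The submitters' processing notes name Bowtie2 2.2.3, RSEM 1.2.20 and the build mm10, without saying what each was used for. The annotation and the strand setting are not given in the sources used here. TPM adds to the same total in each sample, so abundant rows shift the others. It keeps no depth, so precision rests on the 2 samples per genotype.

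The genotypes were compared on log2(TPM + 1) using R 4.3.3 and its package limma 3.58.1 (lmFit, eBayes with a trend, two-sided) on the 12576 rows whose mean reached 1 TPM, with Benjamini-Hochberg adjustment over all of them. The study's main text names no test for these data, and its supplementary methods were not used here. Folds are ratios of mean TPM. The script was tested on simulated data.

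Named members are, in each class, the 3 of highest mean TPM, the 2 largest differences in each direction and those with an unadjusted p under 0.05. In further lists they are at most 5 of smallest p among those with an unadjusted p under 0.05. Other names, Src and Rap1a included, were chosen after their values were seen. Members and lists were chosen with earlier results of these data known.

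GC content, length and coordinates are from GENCODE M21 of GRCm38, found for 96.2% of rows tested, and upstream sequences from RefSeq, matched by symbol for 45 of 51 members. Alternatives were pseudocounts of 0.1 and 5, no minimum or 10 TPM, 2 other scalings, rescaling without the 20 most abundant rows, loess removal of GC and length trends (span 0.5), a block for the replicate number, eBayes with no trend, and leaving out each sample. Python 3.11.15 with matplotlib 3.10.9, numpy 2.4.6 and pandas 2.3.3 was used for tables and figures.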

Additional observations from a re-analysis of the deposited data

How the results depend on the processing

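With 2 samples per genotype and unknown depth, 0 of the 37 members passed an adjusted p of 0.05 (limma, Benjamini-Hochberg) in the analysis as reported and under every alternative that kept all 4 samples, and leaving out 1 sample gave 0 to 9. Higher members at an unadjusted p under 0.05 numbered 11 as reported, 2 with a minimum of 10 TPM (where 12 members are tested), 5 with median-of-ratios scaling, 3 with quantile normalization, 2 with GC and length trends removed, and 3 to 19 with a sample left out. Lower members numbered 0 as reported, and 3, 1 and 2 with those 3 scalings, and 0 to 2 with a sample left out. Members without overlap and higher numbered 19, and 2 with a minimum of 10 TPM, 10 with quantile normalization and 8 with trends removed, while the lower ones numbered 3, and 8 under each of the last 2. The median difference was 0.84, and 0.43 with a pseudocount of 5, 0.52 without a minimum (51 members), 0.19 with a minimum of 10 TPM, 0.53 with median-of-ratios scaling, 0.18 with quantile normalization, 0.14 with trends removed, and 0.54 to 0.97 with a sample left out. Samples share only a replicate number, with 2 pairs and a correlation of same-numbered deviations of -0.15 over all rows and -0.65 over the 37 members. With the replicate block 7 members were higher and 0 lower at an unadjusted p under 0.05, and with the block and the trends removed 1 was higher and 1 lower, with a median of 0.14. The block gave 0 calls at an adjusted p of 0.05, against 7 rows without it. Of 401 values of 28 named members, 22 changed sign. Efna2 turned to -0.0029 with median-of-ratios scaling, -0.41 with quantile normalization and -0.69 with trends removed, with or without the block. With trends removed, with or without the block, Ephb4 turned to -0.040, Efnb1 to -0.49, Efnb3 to -0.13 and Sema6a to -0.0013, and Efnb1 was -0.27 with quantile normalization and Sema6a -0.022 with median-of-ratios scaling. With a sample left out, Epha5 ranged from -0.83 to 0.59, Epha7 from -1.27 to 0.71, Efnb2 from -1.61 to 0.19, Plxnc1 from -0.60 to 1.76 and Sema6a from -0.055 to 0.74. Of the 37 members, 24 kept their sign in every setting, 20 of them positive. The causes were not tested, beyond the fewer rows or samples of some settings.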
